A study of Mus musculus with 10 samples.

Results

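The genes described here encode the cathepsins, the proteases of the lysosome, and the proton pump that acidifies it. They were measured by RNA-seq in YUMMER1.7 melanomas grown in WT mice or in mice labelled Siah2 KO. The naming rule took every symbol of the form Cts plus 1 or 2 characters, every symbol that starts with Atp6v or Atp6ap, and Lamp1, Lamp2, Cd68, Cd63, Cst3, Cst7 and Cstb. These were 55 of the 24421 genes in the table, of which 37 had a value above 0 in at least 1 tumor. These 37 were 13 of 22 cathepsins, 7 of 7 cystatin and lysosomal membrane genes, and 17 of 26 pump genes. The 18 others were listed at 0 in all 10 tumors. They were the cathepsin genes Cts3, Cts6, Cts7, Cts8, Ctse, Ctsj, Ctsm, Ctsq and Ctsr, and the pump genes Atp6ap1l, Atp6v0a4, Atp6v0c, Atp6v0c-ps2, Atp6v0e2, Atp6v1b1, Atp6v1c2, Atp6v1e2 and Atp6v1g3. Atp6v0c encodes the proteolipid that forms the rotating ring of every pump, so that a listing at 0 here cannot be read as absence of the transcript. Over the whole series 11495 genes were listed at 0 in every tumor.

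Lysosomes are acid compartments that break down proteins taken up from outside the cell or delivered from within it. Cathepsins are made as inactive precursors and work best at low pH. They comprise cysteine, aspartic and serine proteases, and cystatins inhibit the cysteine type. The vacuolar proton pump couples ATP hydrolysis by its cytosolic V1 sector to proton transport through its membrane V0 sector, and several of its subunits have isoforms that differ between tissues. In tumors, macrophages and dendritic cells use this system to digest and present antigen, and fibroblasts and osteoclasts use parts of it to degrade matrix.

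YUMMER1.7 is a Braf-mutant mouse melanoma line derived on the C57BL/6 background. The study asked how loss of Siah2, a ubiquitin ligase, in the host affects the tumor, so the injected cells were the same in both groups and the deletion was carried by the mouse in all its tissues. In each mouse 100000 cells were injected under the skin, and whole tumors were taken on day 10 from 5 WT mice and 5 mice labelled Siah2 KO. The study states males aged 6 to 10 weeks of a C57BL/6 background for all its mice, and a partly younger range for a growth experiment with this line. The labels name no drug treatment. Values are given below in the order WT replicates 2, 3, 4, 5 and 6, then Siah2 KO replicates 1, 2 and 3 and the columns KO4 and KO5, whose replicate number could not be matched to a label. The groups rest on the labels: Siah2 itself had normalized counts of 391 to 428 in WT tumors and 490 to 747 in the tumors labelled Siah2 KO, a 1.54-fold higher level (limma adjusted p = 0.00104). The whole tumors include the injected cells, which did not carry the host deletion and can supply Siah2 transcripts in both groups. The counts show neither which cells these transcripts came from nor whether they span the deleted part of the gene. Every direction below is that of the labels.

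The deposited normalized counts summed to between 15414758 and 15527530 in WT tumors and between 15605574 and 16503134 in KO-labelled tumors. From the spacing of low values, 1 read was worth an estimated 0.846 to 1.432 normalized counts, so the reads behind a given value differed between tumors. KO-labelled tumors varied more among themselves than WT tumors did, with a median SD over genes of 0.225 against 0.115 on the log2 scale. These are whole tumors, in which fewer cells of a type and less RNA per cell cannot be told apart.

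The cathepsins moved in both directions. Of the 13 measured, 9 rose in KO-labelled tumors (Ctsb, Ctsc, Ctsd, Ctsg, Ctsh, Ctsl, Ctss, Ctsw and Ctsz), 3 fell (Ctsf, Ctsk and Ctso) and Ctsa did not pass the test (limma on log2(value + 1), adjusted p under 0.05 over all 12926 genes tested). The background was high: 35.6% of all genes tested changed, with 17.5% higher and 18.2% lower, against 69.2% and 23.1% of the measured cathepsins. Past 1.5-fold, 4 cathepsins rose and 2 fell, where 7.32% and 8.45% of all genes did so. The median log2 difference of the 13 was 0.42, with a range from -1.94 to 1.17, beside a median of -0.000563 over all genes. In 5 cathepsins every KO-labelled tumor lay above every WT tumor, as in 11.9% of all genes, and in 2 every one lay below, as in 12.9% of all genes. The summed cathepsin value was 88748 to 106959 in WT tumors and 121554 to 175296 in KO-labelled tumors.

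**Figure D1:**
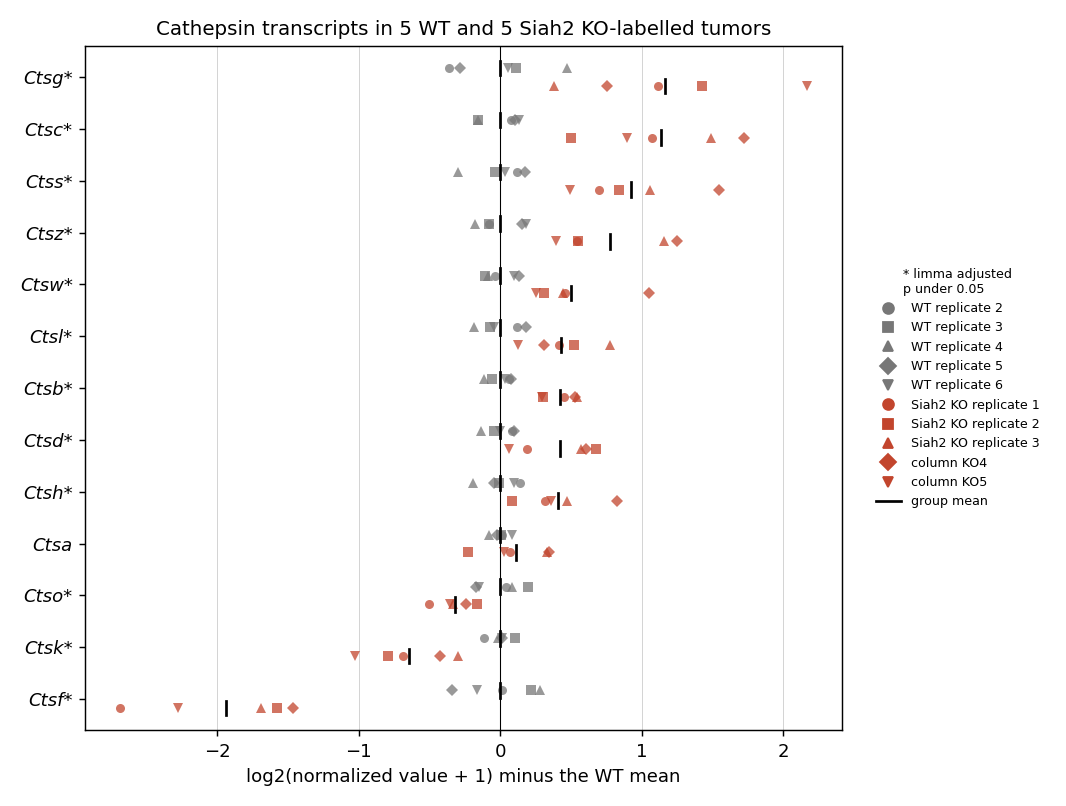
Each point is 1 tumor, drawn as log2(normalized count + 1) minus the WT mean for each of the 13 measured cathepsins, with WT and KO-labelled tumors in separate colors, black bars for the group means and a star for an adjusted p under 0.05. Ctsc, Ctss, Ctsz, Ctsb and Ctsw have all KO-labelled tumors above WT, Ctsf and Ctsk have all of them below, and the other 6 overlap.

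Apart from Ctsg, which rose 2.25-fold at low counts, Ctsc, Ctss and Ctsz rose most among the cathepsins. Ctsc encodes a dipeptidyl peptidase that activates granzymes and neutrophil serine proteases by trimming their precursors. Its normalized counts were 8080, 6883, 6904, 8251 and 8430 in WT tumors and 16142, 10853, 21572, 25312 and 14297 in KO-labelled tumors. The lowest KO-labelled tumor lay above the highest WT tumor, and the difference was 2.20-fold (log2 1.14 ± 0.19 SE, limma adjusted p = 0.000569). Ctss encodes a cysteine protease of antigen-presenting cells that cleaves the invariant chain from MHC class II and stays active near neutral pH. Its counts were 14210, 12743, 10627, 14790 and 13371 in WT tumors and 21191, 23411, 27279, 38197 and 18372 in KO-labelled tumors. The groups did not overlap, and column KO4 was the highest for Ctss as it was for Ctsc (1.90-fold, log2 0.93 ± 0.17 SE, limma adjusted p = 0.0011). Ctsz, a carboxypeptidase of myeloid cells, read 4172, 4159, 3894, 4887 and 4995 against 6416, 6442, 9821, 10465 and 5787. Again every KO-labelled tumor was above every WT tumor, with replicate 3 and column KO4 well above the other 3 (1.72-fold, log2 0.78 ± 0.16 SE, limma adjusted p = 0.00234).

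Ctsk moved against its neighbor in the genome. Ctsk encodes the main collagen-degrading cysteine protease of osteoclasts and is also made by fibroblasts. It read 1564, 1823, 1672, 1706 and 1703 in WT tumors and 1050, 975, 1373, 1259 and 830 in KO-labelled tumors. All KO-labelled tumors lay below all WT tumors, 1.57-fold lower (log2 -0.65 ± 0.12 SE, limma adjusted p = 0.0012). Ctsk lies at chr3:95499256-95509362 and Ctss at chr3:95526786-95556403 in GRCm38, both on the plus strand, with 17423 bases and 0 protein-coding genes between them. The ratio of the Ctss count to the Ctsk count within a tumor was 9.09, 6.99, 6.36, 8.67 and 7.85 in WT tumors and 20.2, 24.0, 19.9, 30.3 and 22.1 in KO-labelled tumors. A ratio within 1 library does not depend on the scaling between libraries, and the lowest ratio of the KO-labelled tumors was above the highest of WT. Each gene alone already separated the groups, in opposite directions, so the ratio had to separate them and is no separate result.

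The promoters of Ctss, Ctsk and Ctsc are shown because the first pair are neighbors that moved in opposite directions and the third rose with Ctss. Each run covers 250 bases before and 50 after the gene start in RefSeq (GRCm38.p6), 5′ to 3′ on the strand of the gene. Capitals mark matches on either strand to GAGGAAGT, a PU.1-type ETS motif of myeloid genes, GAAA followed after 2 bases by GAAA, an interferon regulatory factor type motif named IRF here, or TTCNNNGAA, a STAT-type motif, and no match of CACGTG was found in these 3 runs.
Ctss, chr3:95526536-95526835, plus strand: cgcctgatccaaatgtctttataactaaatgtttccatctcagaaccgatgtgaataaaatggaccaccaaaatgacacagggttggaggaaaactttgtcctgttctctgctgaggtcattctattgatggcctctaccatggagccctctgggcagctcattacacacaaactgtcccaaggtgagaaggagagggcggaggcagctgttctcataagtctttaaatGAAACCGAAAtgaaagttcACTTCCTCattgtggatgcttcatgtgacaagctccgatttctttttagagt
Ctsk, chr3:95498960-95499259, plus strand: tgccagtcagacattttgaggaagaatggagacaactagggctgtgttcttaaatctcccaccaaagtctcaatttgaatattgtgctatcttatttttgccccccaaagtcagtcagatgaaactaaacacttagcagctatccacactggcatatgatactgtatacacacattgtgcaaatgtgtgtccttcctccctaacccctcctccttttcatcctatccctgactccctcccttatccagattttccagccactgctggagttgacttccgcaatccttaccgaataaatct
Ctsc, chr7:88277835-88278134, plus strand: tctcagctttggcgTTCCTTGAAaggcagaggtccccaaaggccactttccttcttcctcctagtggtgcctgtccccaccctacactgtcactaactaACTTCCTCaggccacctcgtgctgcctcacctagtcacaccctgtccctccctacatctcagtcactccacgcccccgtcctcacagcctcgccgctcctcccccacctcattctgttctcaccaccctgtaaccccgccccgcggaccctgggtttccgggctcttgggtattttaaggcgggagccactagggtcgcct
Ctss held an IRF match and a reversed GAGGAAGT match, Ctsc held a reversed GAGGAAGT match and a TTCNNNGAA match, and Ctsk held no match to any of the motifs. Of all 32851 mouse promoters of this length, 3.20% held GAGGAAGT, 3.44% held the IRF motif and 8.30% held TTCNNNGAA. A promoter was on hand for 10 of the 13 measured cathepsins, and the other matches among them were TTCNNNGAA in Ctsg and the IRF motif in Ctso. These are letter matches only and not measured binding.

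Ctsf showed the largest fall of the cathepsins, at low counts. It encodes a cysteine protease with a long cystatin-like propeptide. Its counts were 77, 89, 93, 60 and 68 in WT tumors and 11, 25, 23, 27 and 15 in KO-labelled tumors. The highest KO-labelled tumor was below the lowest WT tumor (mean 77.4 ± 13.9 SD against 20.2 ± 6.87 SD, n = 5 each, 3.83-fold lower, limma adjusted p = 9.37e-05). Ctso, a cysteine protease with few known substrates, read 1174, 1308, 1208, 1013 and 1030 against 806, 1020, 906, 965 and 891. It fell 1.25-fold (limma adjusted p = 0.0159), and replicate 2 of the KO-labelled tumors lay above WT replicate 5, so the groups overlapped.

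Ctsb, Ctsd, Ctsl and Ctsh rose by similar factors, from 1.33- to 1.35-fold. Ctsb, a cysteine protease found in most cell types, read 31068, 28536, 27518, 31274 and 30356 in WT tumors and 40623, 36631, 43196, 42910 and 36478 in KO-labelled tumors. Its groups did not overlap (1.34-fold, log2 0.42 ± 0.09 SE, limma adjusted p = 0.00215). Ctsd, the main aspartic protease of lysosomes, read 11292, 10347, 9691, 11391 and 10617 against 12127, 17030, 15817, 16219 and 11137. Column KO5 lay inside the WT range and the other 4 above it (1.34-fold, log2 0.42 ± 0.12 SE, limma adjusted p = 0.0149). Ctsl, a cysteine endopeptidase, ranged from 20414 to 26383 in WT tumors and from 25267 to 39661 in KO-labelled tumors, with 1 tumor in the WT range (1.35-fold, limma adjusted p = 0.0146). Ctsh, an aminopeptidase, ranged from 2910 to 3655 and from 3509 to 5872 (1.33-fold, limma adjusted p = 0.0174). Ctsa, the serine carboxypeptidase that stabilizes neuraminidase and beta-galactosidase, ranged from 3547 to 3971 and from 3203 to 4769, and its log2 difference was 0.11 ± 0.10 SE (limma adjusted p = 0.416). Reads of some of these genes could be counted elsewhere: 31.3% of the 75-base stretches of Ctsd also occur in the overlapping gene model Gm49369 on the same strand, and 5.22% of those of Ctsl occur in other genes. Exons of other genes, mostly on the opposite strand, cover 32.9% of the exon bases of Ctsl (Gm47123 and the same-strand pseudogene Gm49230), 17.4% of those of Ctsa (Pltp and Neurl2) and 12.8% of those of Ctsb (Fdft1).

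Ctsg and Ctsw are cathepsins of granule-bearing immune cells. Ctsg encodes a serine protease stored in neutrophil and mast cell granules. It read 17, 24, 31, 18 and 23 in WT tumors and 49, 61, 29, 38 and 103 in KO-labelled tumors. Replicate 3 of the KO-labelled tumors lay inside the WT range, and column KO5 was the highest (2.25-fold, log2 1.17 ± 0.30 SE, limma adjusted p = 0.00957). Ctsw, found mainly in cytotoxic T cells and NK cells, read 248, 236, 239, 279 and 272 against 350, 316, 346, 528 and 303. Its groups did not overlap (1.42-fold, log2 0.50 ± 0.14 SE, limma adjusted p = 0.0129), and without column KO4, the highest, the log2 difference was 0.37.

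The order of the cathepsins can be read only on a scale per length, here the normalized count per kb of the longest transcript tagged as principal. The order depends on that choice. For Ctsl this length was 6168 bases of 6489 in all its exons, and a shorter transcript would give it a higher level. In WT tumors Ctss was highest at 9703 per kb, followed by Ctsb at 6272, Ctsd at 5015 and Ctsl at 3778. Ctsc at 3092 and Ctsz at 3068 per kb came next, and their ranges over tumors overlapped (2761 to 3381 and 2702 to 3466). Ctsh at 2058 per kb was followed by Ctsk at 1120 and Ctsa at 1028, again with overlapping ranges, and then by Ctso at 330.6, Ctsw at 205.3, Ctsf at 39.1 and Ctsg at 22.6. In KO-labelled tumors Ctss and Ctsb stayed in the first places at 18959 and 8427 per kb, Ctsc had the next place at 7074, and Ctsf was last at 10.2. The ranges of Ctsb, Ctsc and Ctsd overlapped in that group. Ctsb, Ctsl, Ctss, Ctsd and Ctsc made up 84.5% to 86.1% of the summed cathepsin count in WT tumors and 86.4% to 88.6% in KO-labelled tumors.

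Among the 7 cystatin and lysosomal membrane genes, Cst7, Cd68 and Lamp2 rose and 0 fell in the limma test, with 4 and 0 at an unadjusted p under 0.05. Over all genes tested 17.5% rose and 18.2% fell. Their median log2 difference was 0.23. Cst7 encodes cystatin F, an inhibitor of cathepsin C in the granules of immune cells. It read 109, 131, 107, 113 and 114 in WT tumors and 284, 188, 336, 356 and 196 in KO-labelled tumors. The groups did not overlap (2.28-fold, log2 1.19 ± 0.18 SE, limma adjusted p = 0.000286). Cd68, a heavily glycosylated lysosomal protein used as a macrophage marker, read 1554, 1734, 1587, 1744 and 1695 against 2955, 1685, 3394, 3500 and 2627. Replicate 2 of the KO-labelled tumors stayed in the WT range while the other 4 lay above it (1.65-fold, log2 0.72 ± 0.16 SE, limma adjusted p = 0.00405).

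Lamp1 and Lamp2, which encode major structural proteins of the lysosomal membrane, showed small differences. Lamp1 read 12018, 12492, 11851, 12107 and 11586 in WT tumors and 11143, 10260, 12804, 12610 and 10321 in KO-labelled tumors. Its KO-labelled tumors lay on both sides of the WT range (log2 -0.08 ± 0.08 SE, limma adjusted p = 0.476). Lamp2, which also serves chaperone-mediated autophagy, read 5874, 6530, 5840, 5891 and 5771 against 6945, 6579, 7552, 7905 and 6127. It was 1.17-fold higher at a limma adjusted p of 0.0425, and that call was lost when any 1 of WT replicates 2, 4, 5 and 6, Siah2 KO replicates 1 and 3 or column KO4 was left out, with adjusted p values up to 0.0934.

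Cst3, the secreted cystatin C, read 8545, 10193, 8198, 8933 and 8750 in WT tumors and 6103, 6832, 10526, 10006 and 5140 in KO-labelled tumors. Siah2 KO replicates 1 and 2 and column KO5 lay below the WT range, replicate 3 above it and column KO4 inside it. The difference did not pass (log2 -0.26 ± 0.17 SE, limma adjusted p = 0.259). As a percent of the summed cathepsin count, Cst3 was 8.18, 10.7, 9.24, 8.35 and 8.67 in WT tumors and 4.43, 4.99, 6.22, 5.71 and 4.23 in KO-labelled tumors, with no overlap. The summed cathepsin count alone already separated the groups, so this is no separate result for Cst3. That sum also holds Ctsd, Ctsa and Ctsg, which are not of the cysteine type. Cstb, a cystatin of the cytosol, ranged from 2027 to 2443 and from 1772 to 3334 (limma adjusted p = 0.451). Cd63, a tetraspanin of late endosomes, ranged from 9164 to 10580 and from 9554 to 14645 (limma adjusted p = 0.0907, and 0.0194 without column KO5).

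**Figure D2:**
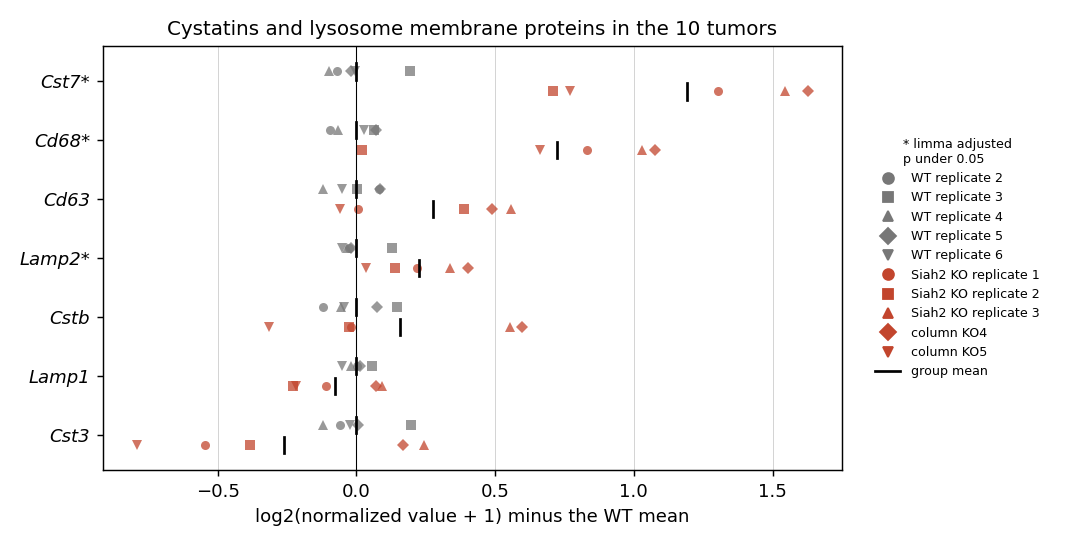
Each point is 1 tumor, drawn as log2(normalized count + 1) minus the WT mean for the 7 cystatin and lysosomal membrane genes, with black bars for group means and a star for an adjusted p under 0.05. Only Cst7 has all KO-labelled tumors above WT, and Cst3, Cstb and Lamp1 have KO-labelled tumors on both sides of the WT range.

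The pump genes also moved in both directions. Of the 17 measured, 6 rose (Atp6v0d2, Atp6v1b2, Atp6v1c1, Atp6v1d, Atp6v1h and Atp6ap2), 2 fell (Atp6v0a1 and Atp6v1g2) and 9 did not pass. That was 35.3% higher and 11.8% lower, beside 17.5% and 18.2% of all genes tested. Past 1.5-fold, 1 pump gene rose and 1 fell, where 7.32% and 8.45% of all genes did so. The log2 difference was positive in 13 of the 17, with a median of 0.30. In 5 pump genes the KO-labelled tumors all lay above WT (11.9% of all genes), in 1 all below (12.9% of all genes), and in 11 the groups overlapped. The summed count was 26805 to 28706 in WT tumors and 27222 to 36784 in KO-labelled tumors.

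Of the 9 measured genes of the V1 sector 4 rose and 1 fell, with a median log2 difference of 0.35, and of the 6 of V0 1 rose and 1 fell, with a median of 0.07. Over all genes tested 17.5% rose and 18.2% fell, and the difference between the sectors was not tested. Atp6v1b2 encodes the B subunit that forms the catalytic head together with A, and ranged from 1914 to 2098 in WT tumors and from 2456 to 3660 in KO-labelled tumors (1.47-fold, log2 0.56 ± 0.11 SE, limma adjusted p = 0.0019). Atp6v1c1, the C subunit that helps hold V1 to V0, ranged from 1573 to 1750 and from 1978 to 2779 (1.39-fold, limma adjusted p = 0.0024). Atp6v1d, part of the rotating stalk, ranged from 997 to 1136 and from 1193 to 1754 (1.40-fold, limma adjusted p = 0.00408). Atp6v1h, a regulatory subunit, ranged from 1372 to 1586 and from 1589 to 2205 (1.30-fold, limma adjusted p = 0.0116). In these 4 genes the groups did not overlap, although for Atp6v1h the gap between the highest WT and the lowest KO-labelled tumor was small.

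The catalytic A subunit did not pass. Atp6v1a read 2926, 2876, 2988, 2955 and 2670 in WT tumors and 3281, 3137, 3618, 3172 and 2967 in KO-labelled tumors. Only column KO5 lay in the WT range (log2 0.16 ± 0.07 SE, limma adjusted p = 0.0809, and 0.043 without column KO5). The stator subunits Atp6v1e1 and Atp6v1g1 and the stalk subunit Atp6v1f had log2 differences of 0.35, 0.30 and 0.20 and limma adjusted p values of 0.0545, 0.0981 and 0.31. For Atp6v1g1, 12.5% of its 75-base stretches also occur in other genes, so its count may be split.

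The V0 sector held the largest changes of single isoforms, in opposite directions. Subunit d couples the stalk to the ring, and its d2 isoform is known from osteoclasts and macrophages. Atp6v0d2 (chr4:19876841-19922605, minus strand) read 21, 16, 21, 42 and 13 in WT tumors and 111, 129, 210, 141 and 69 in KO-labelled tumors. The lowest KO-labelled tumor was above the highest WT tumor (mean 22.6 ± 11.4 SD against 132 ± 51.4 SD, n = 5 each, 5.73-fold, log2 2.52 ± 0.32 SE, limma adjusted p = 9.62e-05). Atp6v0d1, the general isoform, read 1322, 1346, 1339, 1252 and 1276 against 1286, 1371, 1616, 1606 and 1087, with no difference past the test (log2 0.08 ± 0.10 SE, limma adjusted p = 0.58). Per kb, Atp6v0d2 stood at 1.02%, 0.763%, 1.01%, 2.15% and 0.654% of the Atp6v0d1 level in WT tumors and at 5.54%, 6.04%, 8.34%, 5.63% and 4.07% in KO-labelled tumors. The d2 isoform was thus the minor form in every tumor, and it was the lowest pump gene per kb in WT tumors, at 8.90.

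Subunit a carries the proton channel and directs the pump to its membrane. Atp6v0a1 (chr11:101009452-101063719, plus strand), the a1 isoform known best from neurons, read 891, 918, 1037, 940 and 941 in WT tumors and 459, 580, 474, 456 and 550 in KO-labelled tumors. Every KO-labelled tumor was far below every WT tumor (1.88-fold lower, log2 -0.91 ± 0.09 SE, limma adjusted p = 1.14e-05). Atp6v0a2, an isoform of the Golgi and endosomes, read 1253, 1266, 1320, 1169 and 1249 against 1161, 1045, 1039, 1103 and 1305, and did not pass (log2 -0.15 ± 0.08 SE, limma adjusted p = 0.143). The count ratio of a1 to a2 was 0.711 to 0.804 in WT tumors and 0.395 to 0.555 in KO-labelled tumors. Tcirg1, the a3 isoform of osteoclasts and macrophages, is outside the naming rule and was 1.10-fold higher (limma adjusted p = 0.311).

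The peripheral stalk subunit G has a general isoform, Atp6v1g1, and a neuronal one, Atp6v1g2. Atp6v1g2 read 89, 80, 75, 88 and 87 in WT tumors and 62, 61, 53, 66 and 75 in KO-labelled tumors. Column KO5 equalled the lowest WT tumor (1.32-fold lower, limma adjusted p = 0.029). The accessory subunits differed from each other: Atp6ap2, the prorenin receptor, read 1879, 1997, 2017, 2084 and 1771 against 2029, 2871, 2700, 3306 and 1986 (1.30-fold higher, limma adjusted p = 0.0376), while Atp6ap1 read 6354, 6379, 6323, 6634 and 6120 against 5835, 5905, 6692, 6534 and 5533 (log2 -0.06 ± 0.07 SE, limma adjusted p = 0.5). The remaining V0 genes Atp6v0b and Atp6v0e had log2 differences of 0.33 and 0.07 (limma adjusted p = 0.0677 and 0.705), and that of Atp6v0e was -0.030 without Siah2 KO replicate 3.

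Pump counts were sensitive to single tumors. Without column KO5 the number that rose was 10 rather than 6, with Atp6v0b, Atp6v1a, Atp6v1e1 and Atp6v1g1 added, and Atp6v0a2 was called lower. Without WT replicate 2, 5 or 6, or Siah2 KO replicate 3, Atp6v1g2 lost its call and 1 pump gene fell rather than 2. Atp6ap2 lost its call without any 1 of the WT tumors, Siah2 KO replicates 2 and 3 or column KO4, with adjusted p values up to 0.0871.

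**Figure D3:**
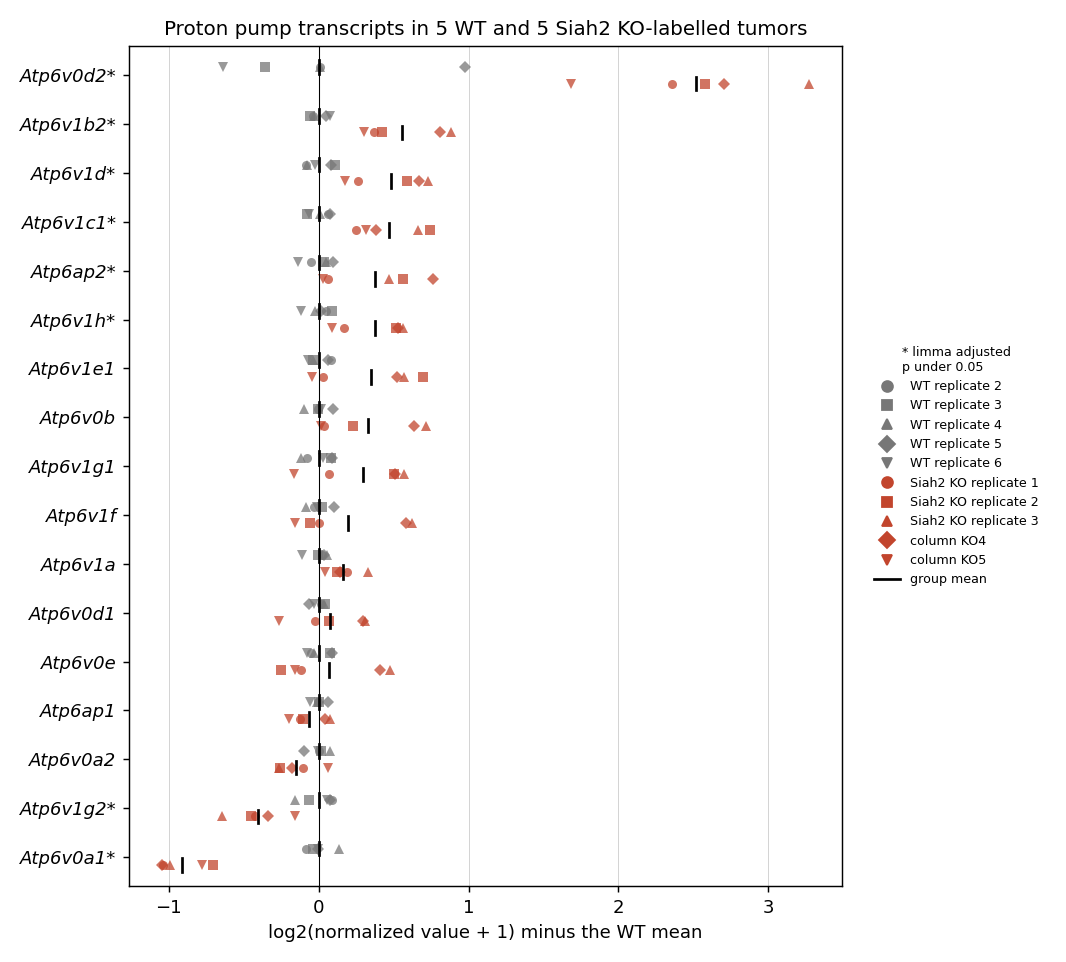
Each point is 1 tumor, drawn as log2(normalized count + 1) minus the WT mean for the 17 measured pump genes, with black bars for group means and a star for an adjusted p under 0.05. Atp6v0d2 stands apart at a log2 difference of 2.52 and Atp6v0a1 at -0.91, and the others lie between -0.40 and 0.56.

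CACGTG is the E-box that MiT factors such as TFEB bind at lysosomal genes, and it was searched in the same RefSeq promoters on both strands. It was present in 7.15% of all promoters and in 11.5% of the 9867 tested genes that had a promoter. It was found in 4 of 10 cathepsin promoters (Ctsa, Ctsd, Ctsf and Ctsl), 4 of 11 pump promoters (Atp6v0b, Atp6v0d1, Atp6v0e and Atp6v1a) and 1 of 6 in the cystatin and membrane group (Lamp1). The stretches around 1 match each are shown for the cathepsins of this set that passed the test and for 3 of the pump genes, with the E-box in capitals (RefSeq, GRCm38.p6, 5′ to 3′ on the strand of the gene).
Ctsd, chr7:142387908-142387937, minus strand: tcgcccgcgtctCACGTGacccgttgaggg
Ctsl, chr13:64370739-64370768, minus strand: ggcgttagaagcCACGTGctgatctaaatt
Ctsf, chr19:4855074-4855103, plus strand: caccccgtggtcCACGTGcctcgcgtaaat
Atp6v0b, chr4:117887348-117887377, minus strand: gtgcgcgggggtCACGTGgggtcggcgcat
Atp6v0d1, chr8:105566050-105566079, minus strand: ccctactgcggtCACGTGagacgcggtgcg
Atp6v1a, chr16:44139373-44139402, minus strand: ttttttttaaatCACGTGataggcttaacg
Of the genes with the motif, Ctsd and Ctsl rose, Ctsf fell, and Ctsa, Lamp1 and the 4 pump genes did not pass. Atp6v0d2 and the strongly changed Ctsc and Ctss were not in the set, the first because no promoter was on hand for it. A match of letters is not a measured site.

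The KO-labelled tumors did not move evenly. Of the 13 cathepsins, 9, 8, 9, 10 and 7 lay above the WT range in replicates 1, 2 and 3 and columns KO4 and KO5, and 3 lay below it in each. Of the 17 pump genes, 6, 11, 14, 13 and 5 lay above and 5, 5, 3, 3 and 6 below. Over all genes the share above the WT range was 31.0%, 35.9%, 37.1%, 38.3% and 32.0% in the same tumors. The share of all genes below it was 31.1%, 37.3%, 37.3%, 37.9% and 32.2%. In replicate 1 and column KO5 the pump share above, 35.3% and 29.4%, was close to that of all genes. Replicate 3 was the highest KO-labelled tumor in 11 of 17 pump genes and column KO5 the lowest in 12. For the cathepsins column KO4 was the highest in 7 of 13 and column KO5 the lowest in 7.

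**Figure D4:**
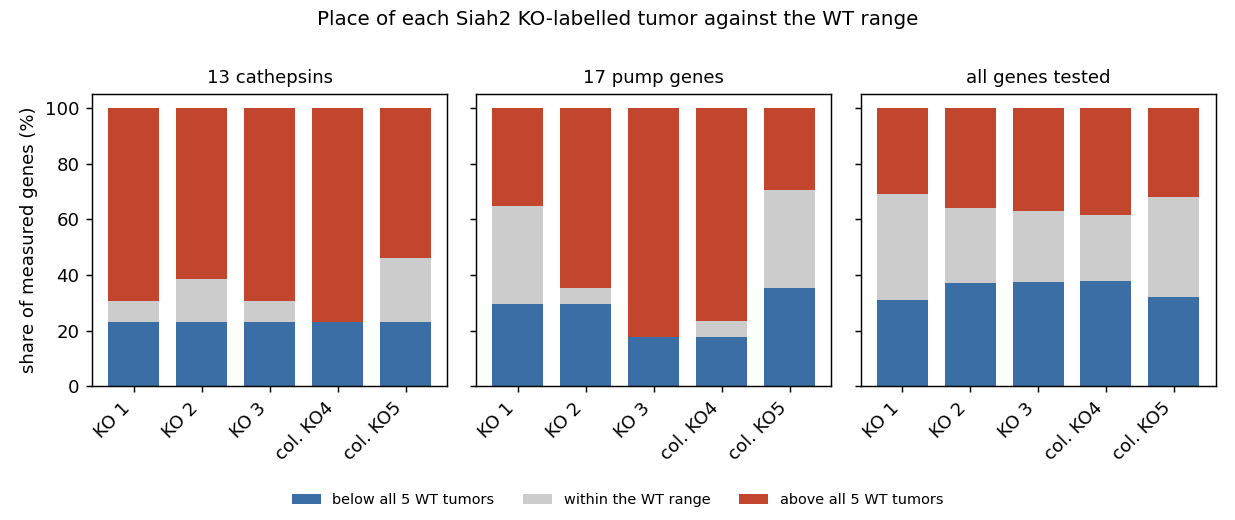
Stacked bars give, for each KO-labelled tumor, the share of genes below, within and above the range of the 5 WT tumors, for the 13 cathepsins, the 17 pump genes and all genes tested. The pump share above WT runs from 5 of 17 genes in column KO5 to 14 of 17 in replicate 3, and the cathepsin share from 7 to 10 of 13.

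**Figure D5:**
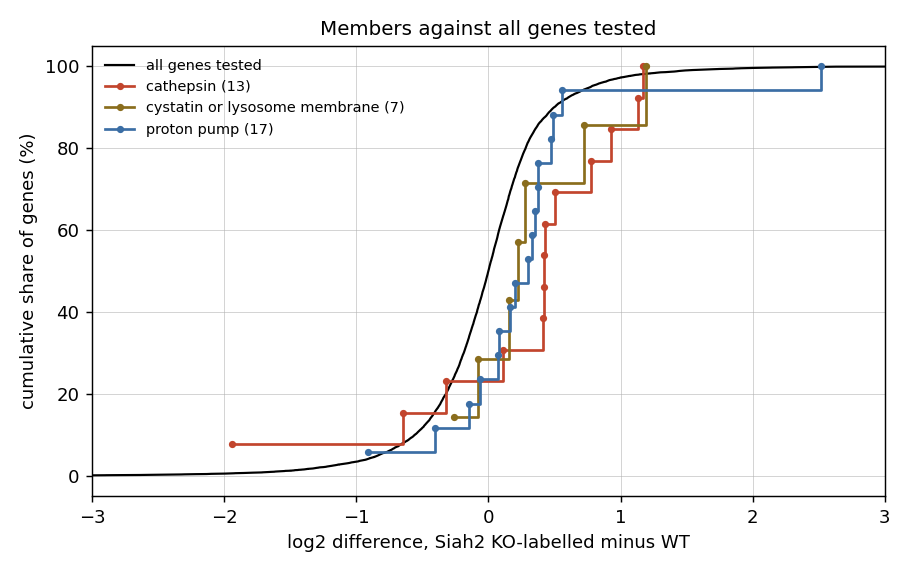
Lines give the cumulative share of genes against the log2 difference between KO-labelled and WT tumors, for cathepsins, pump genes, the cystatin and membrane group and all genes tested. The lines of cathepsins and pump genes lie mostly to the right of the line of all genes, with medians of 0.42 and 0.30 against -0.000563, and the cathepsin line also reaches to -1.94.

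Lists of other lysosomal genes held calls in both directions, to be read beside the 17.5% higher and 18.2% lower over all genes tested. Of 46 soluble hydrolases and their cofactors outside the naming rule, 12 rose and 10 fell, with a median log2 difference of 0.03. Those that rose past 1.5-fold were Gla, an alpha-galactosidase (1.80-fold), Psap, the precursor of the saposins (1.74-fold), Ggh, a gamma-glutamyl hydrolase (1.60-fold), Lgmn, the asparaginyl endopeptidase that processes cathepsins (1.55-fold), and Npc2, a cholesterol carrier (1.55-fold), and Ids, a sulfatase, fell 1.70-fold. Of 31 measured lysosomal membrane genes 10 rose and 6 fell, led by Slc11a1, a metal transporter of phagosomes (2.79-fold), Slc15a3, a peptide and histidine transporter (2.43-fold, limma adjusted p = 4.06e-06), and Cyba, a subunit of the phagocyte NADPH oxidase (2.0-fold). Of 14 genes that assemble, regulate or partner the pump, 3 rose and 1 fell, and Snx10, a sorting nexin that osteoclasts need, rose 2.0-fold (limma adjusted p = 0.000129). Of 13 genes of lysosomal enzyme sorting, 3 rose and 2 fell. The 2 that fell were the sorting receptors Igf2r (1.65-fold lower, limma adjusted p = 0.00444) and Sort1 (1.89-fold lower, limma adjusted p = 0.00182). A further sorting receptor, M6pr, was among the 3 that rose (1.37-fold higher, limma adjusted p = 0.0013). Psap, another of the 3, is also in the list of hydrolases and cofactors. Of 16 MiT transcription factors and mTORC1 regulators of lysosomal genes, 0 passed the limma test in either direction, and at an unadjusted p under 0.05 there were 1 higher and 0 lower. Tfeb had a log2 difference of 0.40 ± 0.19 SE (limma adjusted p = 0.126).

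Cell type markers also differed between the groups, with counts to be read beside the 17.5% higher and 18.2% lower over all genes tested. Of 10 general macrophage markers 6 rose and 0 fell, with summed counts of 49490 to 61000 in WT tumors and 57041 to 93998 in KO-labelled tumors. In Siah2 KO replicates 1 and 2 that sum, 60888 and 57041, lay inside the WT range. The sum is weighted to markers with high counts, such as Lyz2, which did not pass. For 4 of the 10, Itgam, Cd14, C1qa and C1qb, every KO-labelled tumor lay above every WT tumor, as in 11.9% of all genes. All 7 measured markers of resident-like macrophages fell, from 14810 to 23478 down to 6263 to 10346. All 9 cytotoxic lymphocyte markers rose, Gzma and Gzmb among them, with sums of 3054 to 4767 and 10145 to 13521. Of 10 fibroblast markers 8 fell and 2 rose, with sums of 163843 to 184942 and 81019 to 112079, beside the fall of Ctsk. Of 5 measured osteoclast markers 2 rose, with sums of 5516 to 6637 and 6464 to 8528, and Calcr, Dcstamp and Oscar were listed at 0, beside the rise of Atp6v0d2. Of 3 measured neutrophil markers 1 rose, Csf3r (1.78-fold, limma adjusted p = 0.000677), beside the rise of Ctsg. S100a8 and S100a9 overlapped between the groups and did not pass (limma adjusted p = 0.198 and 0.159). The sums of the 3, 371 to 525 and 618 to 1039, were weighted to Csf3r. Cxcr2, Retnlg, Mpo and Elane were listed at 0. Of 8 mast cell markers 2 fell. Of 8 melanocyte lineage markers only Mitf had values, and Mlana, Pmel, Tyr, Dct, Tyrp1, Sox10 and Mc1r were listed at 0, so the melanoma label cannot be checked by them. The part of any of these cell types in the values above was not tested.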

How the data were processed

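Whole tumors of 5 WT and 5 Siah2 KO-labelled mice were analysed. As the methods and the processing notes of the submitters state, poly(A) libraries were read as 75-base single ends, aligned with STAR to mm10, counted with featureCounts and normalized with edgeR. No source used here gives versions, the annotation or the strand setting. The authors deposited 1 score per gene and tumor, a normalized count that the authors rounded to whole numbers, so count models were not used. Values were transformed as log2(value + 1), which understates the change of low genes. Genes at 0 in all tumors were removed, and limma 3.58.1 in R 4.3.3 was fitted over 12926 genes with a mean-variance trend and genotype as the only term. P-values were Benjamini-Hochberg adjusted over all genes, with a threshold of 0.05. The script was tested on simulated data with fewer changed genes than here and an equal spread in both groups. That test does not measure the error rate in these data. P-values measure the spread between these tumors, and the labels name no batch.

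Columns KO4 and KO5 were assigned to the KO group only. Levels per kb used the longest principal transcript in GENCODE M21, positions GRCm38, and promoters RefSeq GRCm38.p6, matched by symbol for 27 of 37 measured members. Every measured member could be named, and values per tumor were printed for those past 1.5-fold, those called against most of their class, core subunits and isoform pairs, and further members after their values were seen. Genes of the other lysosomal lists and of the inhibitor list were named past 1.5-fold, with a few others named beside them. Cell type markers were given mainly as counts and sums, and many past 1.5-fold were not named. Members and lists were chosen with earlier results of these data known. Alternatives were other pseudocounts, scalings, filters and variance models, tumors left out, and a replicate block.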

Additional observations from a re-analysis of the deposited data

Results flagged for a closer look

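Within each group of 5 tumors, the gap from the highest or lowest value to its nearest neighbor was divided by the range of the 5 (Dixon's test). Of 74 groups of values looked at for the 37 measured members, 3 passed, or 4.05%, where chance alone gives about 5%. For Atp6v0d2, WT replicate 5 read 42 and the other WT tumors 13 to 21, and without it the log2 difference was 2.76 rather than 2.52. For Ctsw, column KO4 read 528 and the other KO-labelled tumors 303 to 350, and without it the log2 difference was 0.37 rather than 0.50 (limma adjusted p = 0.0104). For Lamp2, WT replicate 3 read 6530 and the other WT tumors 5771 to 5891, and without it the log2 difference was 0.26 (limma adjusted p = 0.0417). The reasons for these values were not tested.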

How the results depend on the processing

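The cathepsin counts of 9 higher and 3 lower were the same with each tumor left out in turn. With genes of mean value 50 or more, which removes Ctsf and Ctsg, they were 8 and 2. Leaving out tumors in turn gave 2 to 4 higher among the cystatin and membrane genes, 5 to 10 higher and 1 to 3 lower among pump genes, and 3649 to 5182 changed genes in all against 4606. Pump genes lower numbered 1 with no filter on rows at 0 and with the replicate block. Atp6v0e changed sign without Siah2 KO replicate 3 (log2 -0.030) and without column KO4 (log2 -0.013), reached 0.15 without Siah2 KO replicate 2, and was never called. Rescaling to equal totals moved the median of all genes by -0.06 and put 38.6% of the changed genes higher against 49.0%, turned no member's direction, and took the calls of Lamp2 and Atp6ap2. With no filter Ctsl had an adjusted p of 0.0527. Both pseudocounts and median-ratio scaling changed no member's call.

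Only replicate numbers 2 and 3 occur in both groups with a matched column, and nothing ties same-numbered tumors together. Their deviations correlated at r = 0.0349 and 0.0501. With the number as a replicate block, 3902 genes changed and 5 cathepsins were higher, the calls of Ctsb, Ctsg, Ctsh and Ctsw being lost. The same 4 tumors without the block, a fit added after seeing the data, gave 2938 changed genes, 5 cathepsins higher and 1 lower, and 1 pump gene lower. Depth limits the values of Ctsf, Ctsg and Atp6v0d2, whose counts are low.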

Other observations

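Of 16 measured members of a list of serpins, cystatins and other inhibitors, 10 rose and 0 fell in the limma test (11 and 1 at an unadjusted p under 0.05), with a median log2 difference of 0.65. Over all genes tested 17.5% rose. Serpina3n had a log2 difference of -0.74 (limma adjusted p = 0.0965). Serpina3f, a secreted serpin, was 3.90-fold higher, Slpi, a secreted inhibitor of neutrophil serine proteases, 2.78-fold, and Serping1, the C1 inhibitor, 2.69-fold. Serpinb9, an inhibitor of granzyme B, was 1.84-fold higher and its relative Serpinb9b 2.67-fold. Serpina3g, which inhibits cathepsins in mouse T cells, was 1.83-fold higher, Serpinb6b 1.72-fold and Spink2 1.65-fold. These serpins belong to families of close copies, among which reads may be split.

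Among other cell type lists, 2 of 8 dendritic cell markers rose (H2-Ab1 and Itgax) and 4 fell (Ccr7, Cd209a, Flt3 and Zbtb46). Of 6 endothelial markers 2 rose and 3 fell, where 17.5% of all genes tested rose and 18.2% fell. Of 6 skeletal muscle markers 1 rose, Des, and of 5 keratinocyte markers only Krt10 had values above 0, at a mean of 78 in WT tumors and 76 in KO-labelled tumors.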
